A study of Mus musculus with 10 samples.

Results

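The clustered histone genes are the replication-dependent histone genes that lie side by side in the mouse histone gene clusters, and they were taken here as the genes whose symbol begins with *Hist1h*, *Hist2h*, *Hist3h* or *Hist4h*. Of the 17001 genes in the table of bulk total RNA libraries, 60 met this rule, namely 6 H1, 15 H2A, 16 H2B, 11 H3 and 12 H4 genes. By GENCODE M21 on mm10, 49 of them lie on chromosome 13, 8 on chromosome 3, 2 on chromosome 11 and 1 on chromosome 6, and 2 of the 60 (*Hist1h2aj* and *Hist3h2bb-ps*) are annotated as pseudogenes. A further 10 symbols of that annotation met the rule and had no row in the table. Every gene of the table has at least 10 normalized counts in at least 3 libraries, so that a gene that is high in 1 population alone could enter through that population. Of the 60 members, 44 reached 10 normalized counts in 3 libraries of every population, 11 did so in 2 populations, 3 in 1 population and 2 in none.

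The libraries came from macrophages sorted from hindlimb muscle of mice 4 weeks old, in 3 populations. Monocyte-derived macrophages (MDMs, 3 libraries) and galectin-3-positive (gal-3+) macrophages (4 libraries) came from mdx mice (C57BL/10ScSn-Dmdmdx/J), which lack dystrophin and serve as a model of Duchenne muscular dystrophy, and skeletal muscle resident macrophages (SkMRMs, 3 libraries) came from wild-type (WT) C57BL/10 mice without muscle disease. MDMs were sorted as Folr2-negative cells low in galectin-3, gal-3+ macrophages as cells high in galectin-3 and low in Folr2, and SkMRMs as Folr2-positive cells. Population and genotype therefore cannot be told apart in a comparison with SkMRMs, while MDMs and gal-3+ macrophages share the genotype. The labels call the libraries biological replicates, and do not say which mice each library came from.

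Histones package DNA, with the core histones H2A, H2B, H3 and H4 forming the nucleosome and the linker histone H1 binding where DNA enters and leaves it. The clustered genes supply most of the histone needed when a cell copies its DNA, and their mRNAs rise in S phase and are degraded when replication ends. Unlike other mRNAs they carry no poly(A) tail and end in a conserved stem-loop that is bound by the stem-loop binding protein SLBP, so that libraries primed on poly(A) largely miss them while total RNA libraries hold them. Some clustered genes also give polyadenylated transcripts in cells that have stopped dividing.

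The stem-loop is the feature that sets these mRNAs apart. It was searched for in the annotated transcripts with 1 fixed 16-base histone pattern, laid out as a 6-base stem around a 4-base loop. The pattern fixed or limited the base at all places but 1, and did not require the stem arms to pair. It was found in 41 of the 60 members (68.3%) and in 19 of the 16311 other genes of the table that had a GENCODE M21 transcript (0.116%). The annotated transcripts of the other 19 members held no such match. Some of these, such as that of *Hist1h2ak* (393 bases, of which 390 are coding), are annotated only to about the end of the coding sequence. A stem-loop beyond that end, or one whose bases depart from the pattern, could not be found by this search. The forms below are shown because they set the H4 genes apart from the other histone types, with the loop in capitals and positions on mm10 (GRCm38).
Hist1h1c (chr13:23739512-23739527, plus strand): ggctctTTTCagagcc
Hist1h3e (chr13:23561903-23561918, minus strand): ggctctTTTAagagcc
Hist1h4d (chr13:23581950-23581965, plus strand): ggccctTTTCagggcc
Hist1h4b (chr13:23757366-23757381, plus strand): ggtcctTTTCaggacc
Hist2h4 (chr3:96262939-96262954, minus strand): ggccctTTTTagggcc
The form printed for *Hist1h1c* was shared by 22 members (3 H1, 7 H2A, 8 H2B and 4 H3) and by no H4 gene. The form of *Hist1h4d* was found in 6 members and those of *Hist1h4b* and *Hist2h4* in 2 each, all of them H4 genes. The form of *Hist1h3e* was found in 6 members, 1 H1, 2 H2B and 3 H3. In 20 members the annotated transcript ends within 100 bases of the stem-loop, and in 21 it runs on for more than 100 bases.

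The promoters of 53 members matched an entry of the RefSeq promoter table (GRCm38.p6), which gives 250 bases before to 50 bases after each start site. The octamer ATGCAAAT, the motif that OCT1 (*Pou2f1*) binds in H2B promoters, was searched for on both strands and stood in 11 of the 53 (20.8%), against 1.97% of the 27025 genes of that table. It was found in 5 of 14 H2A and 6 of 13 H2B promoters and in no H1, H3 or H4 promoter. The 11 promoters hold 9 distinct octamers, because *Hist1h2ae* and *Hist1h2bg*, and likewise *Hist1h2ah* and *Hist1h2bk*, are divergent neighbours that share 1 each. The windows of 4 holders with large counts are shown with the octamer in capitals, reading towards the gene.
Hist1h2ab (chr13:23750944-23750996, plus strand): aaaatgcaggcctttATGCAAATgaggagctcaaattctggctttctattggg
Hist2h2ac (chr3:96221043-96221095, minus strand): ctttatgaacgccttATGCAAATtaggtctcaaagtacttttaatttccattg
Hist1h2bg (chr13:23571326-23571378, plus strand): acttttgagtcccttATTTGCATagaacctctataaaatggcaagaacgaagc
Hist2h2bb (chr3:96269637-96269689, plus strand): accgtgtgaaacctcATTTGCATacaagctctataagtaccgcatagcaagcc
The octamer reads forwards in the H2A promoters and as its reverse complement in the H2B promoters. The CCAAT motif, also searched for on both strands, stood in 84.9% of the members' promoters and in 41.1% of all genes, and TATAAA stood in 58.5% and 15.7%. All H1, H2A, H2B and H3 promoters in the table held CCAAT, whereas 3 of 11 H4 promoters (27.3%) did. A match of letters is a description of the sequence and was not tested for factor binding.

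The clustered histone genes took a small share of the reads, and that share was lowest in MDMs. They held 0.0243 ± 0.0027% of the reads in MDMs, 0.0620 ± 0.0050% in gal-3+ macrophages and 0.0813 ± 0.0144% in SkMRMs (SD, n = 3, 4 and 3). The MDM share was 2.55-fold below that of gal-3+ macrophages and 3.35-fold below that of SkMRMs. Depth, as reads counted to the genes of the table, was 22395027 to 29186317 in MDMs, 23575186 to 40307596 in gal-3+ macrophages and 24323114 to 75907638 in SkMRMs. In normalized counts, which divide each library's counts by 1 size factor, the members summed to 8481 ± 860 in MDMs, 19672 ± 1653 in gal-3+ macrophages and 22653 ± 3641 in SkMRMs. In a bulk library, fewer cells holding these mRNAs and less of the mRNA in each cell cannot be told apart.

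All 5 histone types were lower in MDMs than in both other populations, with no overlap between libraries, while gal-3+ macrophages and SkMRMs overlapped in every type. H1 genes summed to 3379, 4307 and 4053 normalized counts in MDMs, against 6943, 6675, 8083 and 7452 in gal-3+ macrophages and 6341, 7678 and 7870 in SkMRMs. The MDM mean for H1 was 1.86-fold below the SkMRM mean and 1.86-fold below the gal-3+ mean. H2A genes summed to 1129, 1340 and 1389 in MDMs, against 4072, 3131, 4283 and 3602 in gal-3+ macrophages and 4229, 5260 and 5922 in SkMRMs. H2A was 3.99-fold lower in MDMs than in SkMRMs and 2.93-fold lower than in gal-3+ macrophages, the widest gaps among the 5 types in these means.

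H2B genes summed to 1036, 1373 and 1334 in MDMs, against 3308, 3370, 3514 and 3051 in gal-3+ macrophages and 2735, 3676 and 4160 in SkMRMs. The MDM mean for H2B was 2.82-fold below that of SkMRMs and 2.65-fold below that of gal-3+ macrophages. H3 genes summed to 721, 782 and 926 in MDMs, against 2324, 1935, 2712 and 2062 in gal-3+ macrophages and 2577, 3206 and 3350 in SkMRMs. H3 was 3.76-fold lower in MDMs than in SkMRMs and 2.79-fold lower than in gal-3+ macrophages. H4 genes summed to 1233, 1290 and 1152 in MDMs, against 3117, 2795, 3272 and 2986 in gal-3+ macrophages and 2907, 3331 and 4717 in SkMRMs. H4 was 2.98-fold lower in MDMs than in SkMRMs and 2.48-fold lower than in gal-3+ macrophages, and the SkMRM library WT3 stood above the other 2 SkMRM libraries. The sums are descriptions and carry no test.

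**Figure D1:**
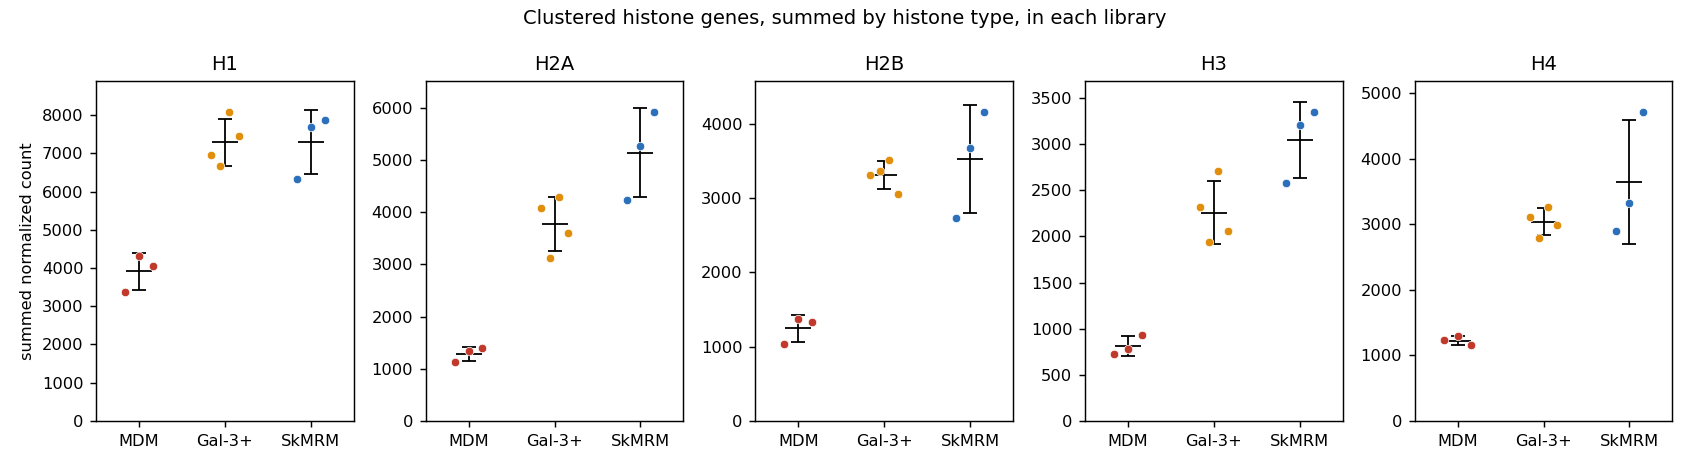
Summed normalized counts of the clustered histone genes by histone type, with the MDM, gal-3+ and SkMRM libraries from left to right in each panel (points, libraries; horizontal mark and bar, mean and SD; linear axes from 0). The 3 MDM libraries lie below every other library in each panel, between 1129 and 1389 for H2A against 3131 to 5922 in the other libraries.

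The make-up of the histone counts also differed, with H1 taking the largest share in MDMs. Of the members' normalized counts, not corrected for length, H1 genes took 46.1 ± 1.2% in MDMs, 37.1 ± 1.5% in gal-3+ macrophages and 32.4 ± 1.9% in SkMRMs. The H1 share ran from 45.1 to 47.4% in MDMs, from 35.1 to 38.9% in gal-3+ macrophages and from 30.2 to 33.8% in SkMRMs, with no overlap among the populations. H2A genes took 15.2 ± 0.5% in MDMs, 19.1 ± 1.3% in gal-3+ macrophages and 22.7 ± 0.1% in SkMRMs, also without overlap. The H2B and H4 shares overlapped between MDMs and SkMRMs.

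Gene by gene, most members were lower in MDMs than in SkMRMs. A gene was called when its log2 fold change was at least 1 in size and its adjusted p, from limma over all 17001 genes, was under 0.01. In MDMs over SkMRMs, 41 of the 60 members fell and none rose, against 18.0% of all genes called lower and 8.81% called higher. The fitted log2 fold change was below 0 for all 60 members, with a median of -1.75 beside -0.17 over all genes. The MDM libraries lay below the SkMRM libraries without overlap for 49 of the 60 members, against 34.9% of all genes. Of the 44 members that reached 10 normalized counts in 3 libraries of every population, 37 were called lower. By type, 3 of 6 H1, 10 of 15 H2A, 12 of 16 H2B, 9 of 11 H3 and 7 of 12 H4 genes fell.

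In MDMs over gal-3+ macrophages, 2 populations of the same genotype, 34 of the 60 members fell and none rose. Of all genes, 8.19% were called lower in this comparison and 3.32% higher. The members' median log2 fold change was -1.39 beside 0.03 over all genes, and 57 of 60 members had a fold change below 0. The libraries did not overlap for 46 members, all lower in MDMs, against 20.8% of all genes. By type, 3 of 6 H1, 9 of 15 H2A, 10 of 16 H2B, 6 of 11 H3 and 6 of 12 H4 genes fell. The 2 comparisons of MDMs share the MDM libraries, so their counts are not independent of each other.

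In gal-3+ macrophages over SkMRMs, no member was called in either direction by limma, against 11.9% of all genes called lower and 5.34% called higher. At an unadjusted p under 0.05 by limma, 12 members differed, 11 of them lower in gal-3+ macrophages. The share of all genes at that looser cut was not counted, so these 12 do not set the members apart from other genes. With edgeR on the recovered reads *Hist4h4* was called, and with DESeq2 *Hist4h4* and *Hist2h4*, all lower. The members' median log2 fold change was -0.34 beside -0.11 over all genes, with 47 of 60 below 0. All gal-3+ libraries lay below all SkMRM libraries for 9 members, against 28.1% of all genes. Summed counts of H1, the type with the smallest gap, were 7288 ± 620 in gal-3+ macrophages and 7296 ± 833 in SkMRMs.

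**Figure D2:**
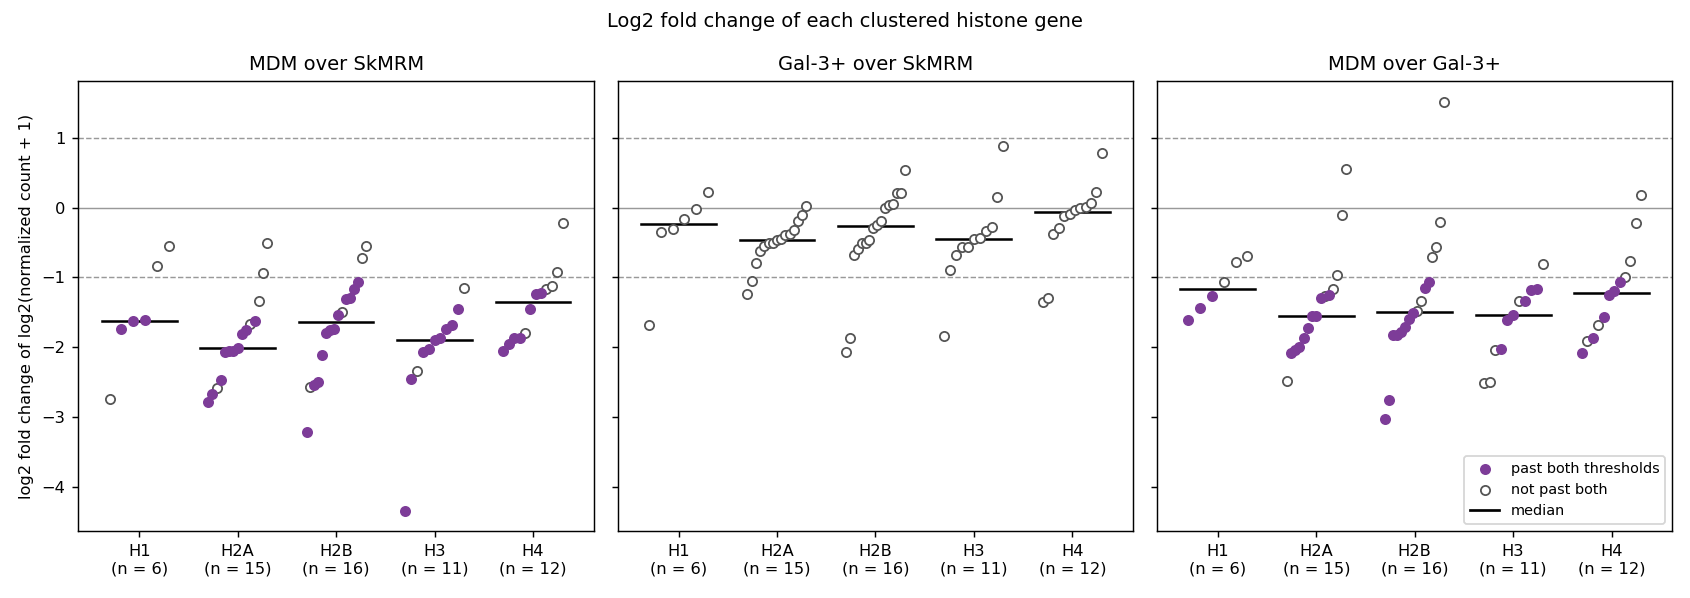
Log2 fold change of each of the 60 clustered histone genes by histone type, on the scale of log2(normalized count + 1), for MDMs over SkMRMs, gal-3+ macrophages over SkMRMs and MDMs over gal-3+ macrophages (filled points, past both thresholds; open points, not past both; bars, medians; dashed lines, a log2 fold change of 1 in either direction). Filled points appear in the MDM panels only, all below -1, and the middle panel has 0 of 60 filled.

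**Figure D3:**
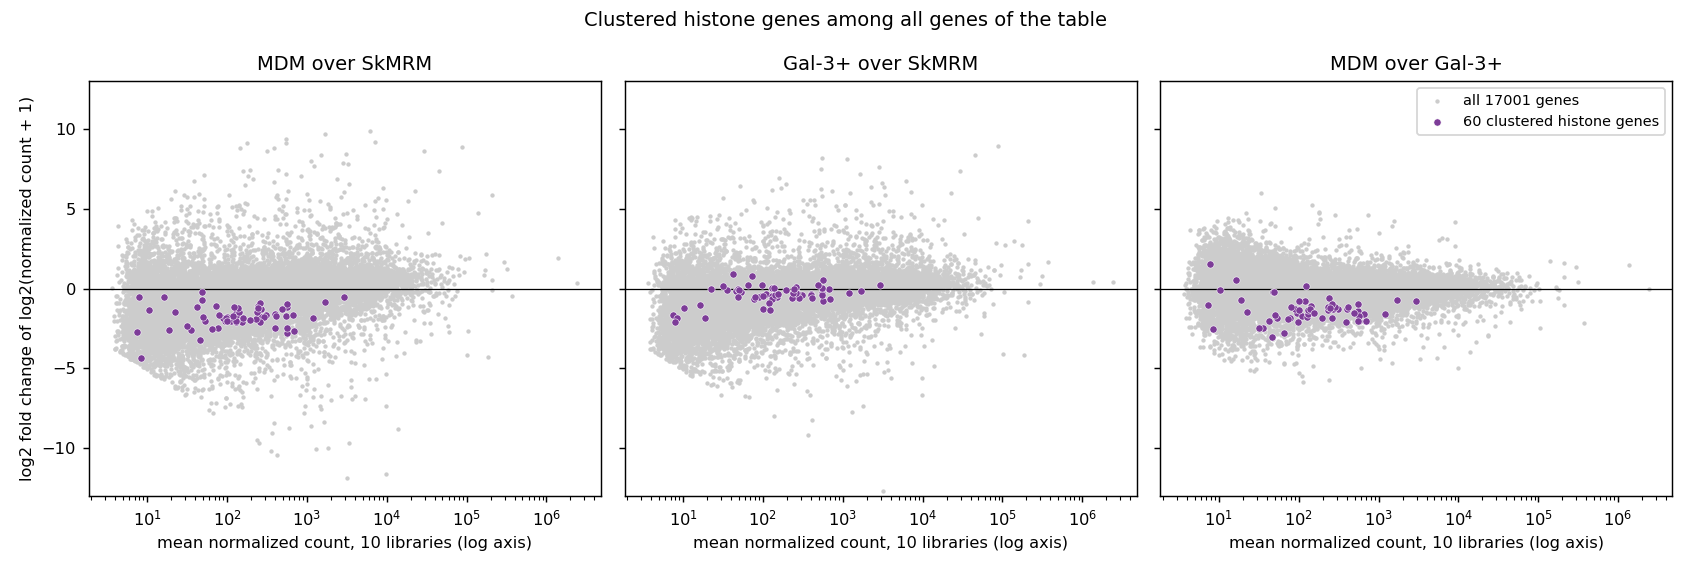
Log2 fold change against mean normalized count over the 10 libraries (log axis) for the 60 clustered histone genes (purple) and all 17001 genes (grey), with the 3 comparisons from left to right. The purple points lie below 0 across the range of levels in MDMs over SkMRMs, with a median of -1.75. In gal-3+ macrophages over SkMRMs they run from -2.07 to 0.89, with a median of -0.34 and 47 of 60 below 0.

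Among the H1 genes, which encode the linker histones, the 2 with the most counts had the smallest fold changes in both comparisons of MDMs. Per kilobase of coding length, *Hist1h1c* (H1.2) had a mean of 3273 normalized counts in MDMs, 5583 in gal-3+ macrophages and 4783 in SkMRMs, the highest of the members in MDMs and gal-3+ macrophages. *Hist1h1c* had 1720, 2294 and 2231 normalized counts in MDMs, against 3131, 3466, 3761 and 3845 in gal-3+ macrophages and 2857, 3366 and 2903 in SkMRMs. The MDM libraries lay below all others, with a log2 fold change of -0.55 (SE 0.11, adjusted p = 4.9e-04 by limma) over SkMRMs and -0.78 (SE 0.11, adjusted p = 2.3e-05) over gal-3+ macrophages, neither reaching 2-fold. *Hist1h1c* took 24.5 ± 1.3% of the members' counts in MDMs, 18.1 ± 2.0% in gal-3+ macrophages and 13.6 ± 2.2% in SkMRMs. *Hist1h1e* (H1.4) had 968, 1239 and 1225 normalized counts in MDMs, against 1850, 1580, 2269 and 1688 in gal-3+ macrophages and 1745, 2142 and 2259 in SkMRMs. Its log2 fold change was -0.84 in MDMs over SkMRMs (SE 0.14, adjusted p = 6.2e-05), again without overlap and short of 2-fold.

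The other somatic H1 genes fell by more than 2-fold. *Hist1h1d* (H1.3) had 299, 320 and 203 normalized counts in MDMs, against 895, 758, 882 and 754 in gal-3+ macrophages and 677, 829 and 1031 in SkMRMs. Its log2 fold change was -1.63 in MDMs over SkMRMs (SE 0.18, adjusted p = 8.1e-07) and -1.60 over gal-3+ macrophages (SE 0.17, adjusted p = 1.6e-06). *Hist1h1b* (H1.5) and *Hist1h1a* (H1.1) had log2 fold changes of -1.74 and -1.61 in MDMs over SkMRMs and of -1.43 and -1.26 over gal-3+ macrophages, all called. *Hist1h1t*, which encodes the testis H1, ran from 0 to 7.9 normalized counts in MDMs, from 0.78 to 12.0 in gal-3+ macrophages and from 4.7 to 26.3 in SkMRMs, and was not called. The whole annotated transcripts of *Hist1h1a*, *Hist1h1b* and *Hist1h1t* are unique in windows of 100 bases, the read length, so that their reads can be told from those of other genes.

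Among the H2A genes, *Hist1h2ak* and *Hist1h2af* had the highest means over the 10 libraries and, among members of any type with a mean of at least 50 normalized counts, the largest falls in MDMs over SkMRMs. In MDMs alone, *Hist2h2ac* had the highest mean of the H2A genes (335, against 180 and 141). Of the 100-base windows of *Hist1h2ak* and *Hist1h2af*, 84.0% and 20.7% are unique. *Hist1h2ak* had 202, 156 and 181 normalized counts in MDMs, against 749, 548, 955 and 758 in gal-3+ macrophages and 1058, 1215 and 1150 in SkMRMs. The 3 populations did not overlap, and the log2 fold change was -2.67 in MDMs over SkMRMs (SE 0.18, adjusted p = 1.1e-09), -2.04 over gal-3+ macrophages (SE 0.16, adjusted p = 8.2e-08), and -0.62 in gal-3+ macrophages over SkMRMs (SE 0.16, adjusted p = 4.9e-03). *Hist1h2af* had 120, 174 and 129 normalized counts in MDMs, against 644, 400, 676 and 563 in gal-3+ macrophages and 872, 1031 and 1016 in SkMRMs. Its log2 fold change was -2.79 in MDMs over SkMRMs (SE 0.20, adjusted p = 2.9e-09), and -0.79 in gal-3+ macrophages over SkMRMs (SE 0.19, adjusted p = 2.1e-03), short of 2-fold. *Hist1h2af* and *Hist1h2ak* were the 2 members with an adjusted p under 0.01 and a lower level in gal-3+ macrophages than in SkMRMs, at any fold.

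*Hist1h2ab*, whose promoter window is printed above, had 98.03, 111 and 108 normalized counts in MDMs, against 462, 369, 611 and 399 in gal-3+ macrophages and 436, 669 and 703 in SkMRMs. The MDM libraries were close together and below all others, with a log2 fold change of -2.47 over SkMRMs (SE 0.22, adjusted p = 5.2e-08) and -2.09 over gal-3+ macrophages (SE 0.21, adjusted p = 7.6e-07). *Hist2h2ac*, on chromosome 3, had 299, 281 and 425 normalized counts in MDMs, against 718, 667, 624 and 576 in gal-3+ macrophages and 449, 620 and 906 in SkMRMs. Its log2 fold changes of -0.94 over SkMRMs and -0.97 over gal-3+ macrophages (adjusted p = 1.3e-03 and 1.1e-03) fell just short of 2-fold.

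Among the H2B genes, *Hist1h2bc* was the single member with an adjusted p under 0.01 and a higher level in gal-3+ macrophages than in SkMRMs. It had 229, 253 and 254 normalized counts in MDMs, against 697, 888, 888 and 753 in gal-3+ macrophages and 493, 662 and 510 in SkMRMs. The gal-3+ libraries lay above the SkMRM libraries without overlap, with a log2 fold change of 0.54 (SE 0.15, adjusted p = 5.3e-03), and the MDM libraries lay below both, with -1.16 over SkMRMs (SE 0.16, adjusted p = 6.2e-06) and -1.71 over gal-3+ macrophages (SE 0.15, adjusted p = 1.4e-07). *Hist2h2bb*, which overlaps another gene on its strand and has no unique 100-base window (0%), so that its reads cannot be told from those of other genes, had 196, 264 and 198 normalized counts in MDMs, against 601, 584, 652 and 640 in gal-3+ macrophages and 393, 406 and 965 in SkMRMs. One SkMRM library, WT3, stood far above the other 2 for this gene, and its call in MDMs over SkMRMs (log2 fold change of -1.30, adjusted p = 3.8e-04) did not hold without WT3 (-0.88), while the call over gal-3+ macrophages (-1.50, adjusted p = 1.1e-04) did. *Hist1h2bg* had 93.3, 180 and 127 normalized counts in MDMs, against 375, 275, 250 and 265 in gal-3+ macrophages and 401, 473 and 436 in SkMRMs. Its log2 fold change was -1.75 in MDMs over SkMRMs (SE 0.24, adjusted p = 8.0e-06).

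The H2B genes *Hist1h2bj* and *Hist1h2bf* showed large falls at lower counts. *Hist1h2bj* had 14.2, 2.6 and 42.3 normalized counts in MDMs, against 94.1, 61.3, 90.3 and 119 in gal-3+ macrophages and 63.0, 75.3 and 94.9 in SkMRMs. The MDM libraries varied widely but stayed below all others, with a log2 fold change of -2.55 over SkMRMs (SE 0.67, adjusted p = 3.7e-03) and -2.76 over gal-3+ macrophages (SE 0.63, adjusted p = 2.2e-03). Its call over SkMRMs was lost with edgeR, when the 2 populations were fitted alone, and without MDM library mdx4 (log2 fold change of -1.60), SkMRM library WT2 (-2.56) or SkMRM library WT3 (-2.40), and its call over gal-3+ macrophages was lost when the 2 populations were fitted alone. With a replicate block the calls of *Hist1h2bj* (-2.70) and *Hist1h2bf* (-2.11) over SkMRMs were lost. That block joins WT and mdx libraries by column number, although these cannot come from 1 mouse. *Hist1h2bf* had 42.7, 11.5 and 18.8 normalized counts in MDMs, against 94.8, 52.0, 71.8 and 99.4 in gal-3+ macrophages and 84.0, 169 and 134 in SkMRMs, with a log2 fold change of -2.50 in MDMs over SkMRMs (SE 0.49, adjusted p = 3.2e-04).

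The H3 genes with large counts fell in MDMs in both comparisons. *Hist1h3b* had 104, 208 and 162 normalized counts in MDMs, against 776, 596, 760 and 431 in gal-3+ macrophages and 730, 861 and 942 in SkMRMs. It was lower in MDMs without overlap, with a log2 fold change of -2.46 over SkMRMs (SE 0.24, adjusted p = 1.8e-07) and -2.03 over gal-3+ macrophages (SE 0.23, adjusted p = 2.9e-06). *Hist1h3e*, whose stem-loop ends the loop in A, had 163, 227 and 166 normalized counts in MDMs, against 456, 327, 579 and 347 in gal-3+ macrophages and 562, 634 and 657 in SkMRMs, with a log2 fold change of -1.75 over SkMRMs (SE 0.21, adjusted p = 2.2e-06). *Hist1h3f* had 122, 90.6 and 136 normalized counts in MDMs, against 191, 261, 358 and 250 in gal-3+ macrophages and 288, 377 and 286 in SkMRMs, and fell in both comparisons (log2 fold changes of -1.45 and -1.17). *Hist2h3c2* was at 0 in all 3 MDM libraries, against 1.6, 2.7, 6.2 and 14.6 in gal-3+ macrophages and 24.5, 17.9 and 16.6 in SkMRMs. It reached 10 normalized counts in 3 libraries of SkMRMs alone, and so entered the table through the population where it was highest. With a floor of 3 reads over the MDM libraries together, its mean was at least 14.6-fold lower in MDMs than in SkMRMs, and its fitted value, the lowest of the members, depends on the pseudocount. *Hist2h3c2* is 1 of the 41 members called lower, and was chosen after its values were seen.

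Among the H4 genes, *Hist1h4d* had the most counts and unique reads. It had 436, 459 and 490 normalized counts in MDMs, against 1406, 1212, 1580 and 1328 in gal-3+ macrophages and 1463, 1693 and 1948 in SkMRMs. The MDM libraries lay close together and far below the others, with a log2 fold change of -1.87 over SkMRMs (SE 0.13, adjusted p = 1.3e-09) and -1.57 over gal-3+ macrophages (SE 0.12, adjusted p = 3.2e-08). *Hist1h4c* had 136, 131 and 189 normalized counts in MDMs, against 346, 288, 270 and 300.3 in gal-3+ macrophages and 198, 216 and 544 in SkMRMs, and was called in neither comparison by limma (log2 fold changes of -0.92 and -0.99, adjusted p = 0.016 and 0.011). Over SkMRMs it was called lower by DESeq2 (-1.08) and edgeR (-1.06), with upper-quartile scaling (-1.08) and without SkMRM library WT1 (-1.19), and over gal-3+ macrophages with TMM (-1.03) and upper-quartile scaling (-1.03). WT3 was again the highest SkMRM library. *Hist1h4h* had 136, 114 and 130.3 normalized counts in MDMs, against 275, 287, 311 and 292 in gal-3+ macrophages and 285, 237 and 388 in SkMRMs, and fell in both comparisons (log2 fold changes of -1.23 and -1.20). *Hist1h4f* had 31.6, 48.5 and 17.6 normalized counts in MDMs, against 136, 97.4, 164 and 136 in gal-3+ macrophages and 89.8, 110.3 and 143 in SkMRMs, with a log2 fold change of -2.09 over gal-3+ macrophages (SE 0.37, adjusted p = 2.9e-04).

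**Figure D4:**
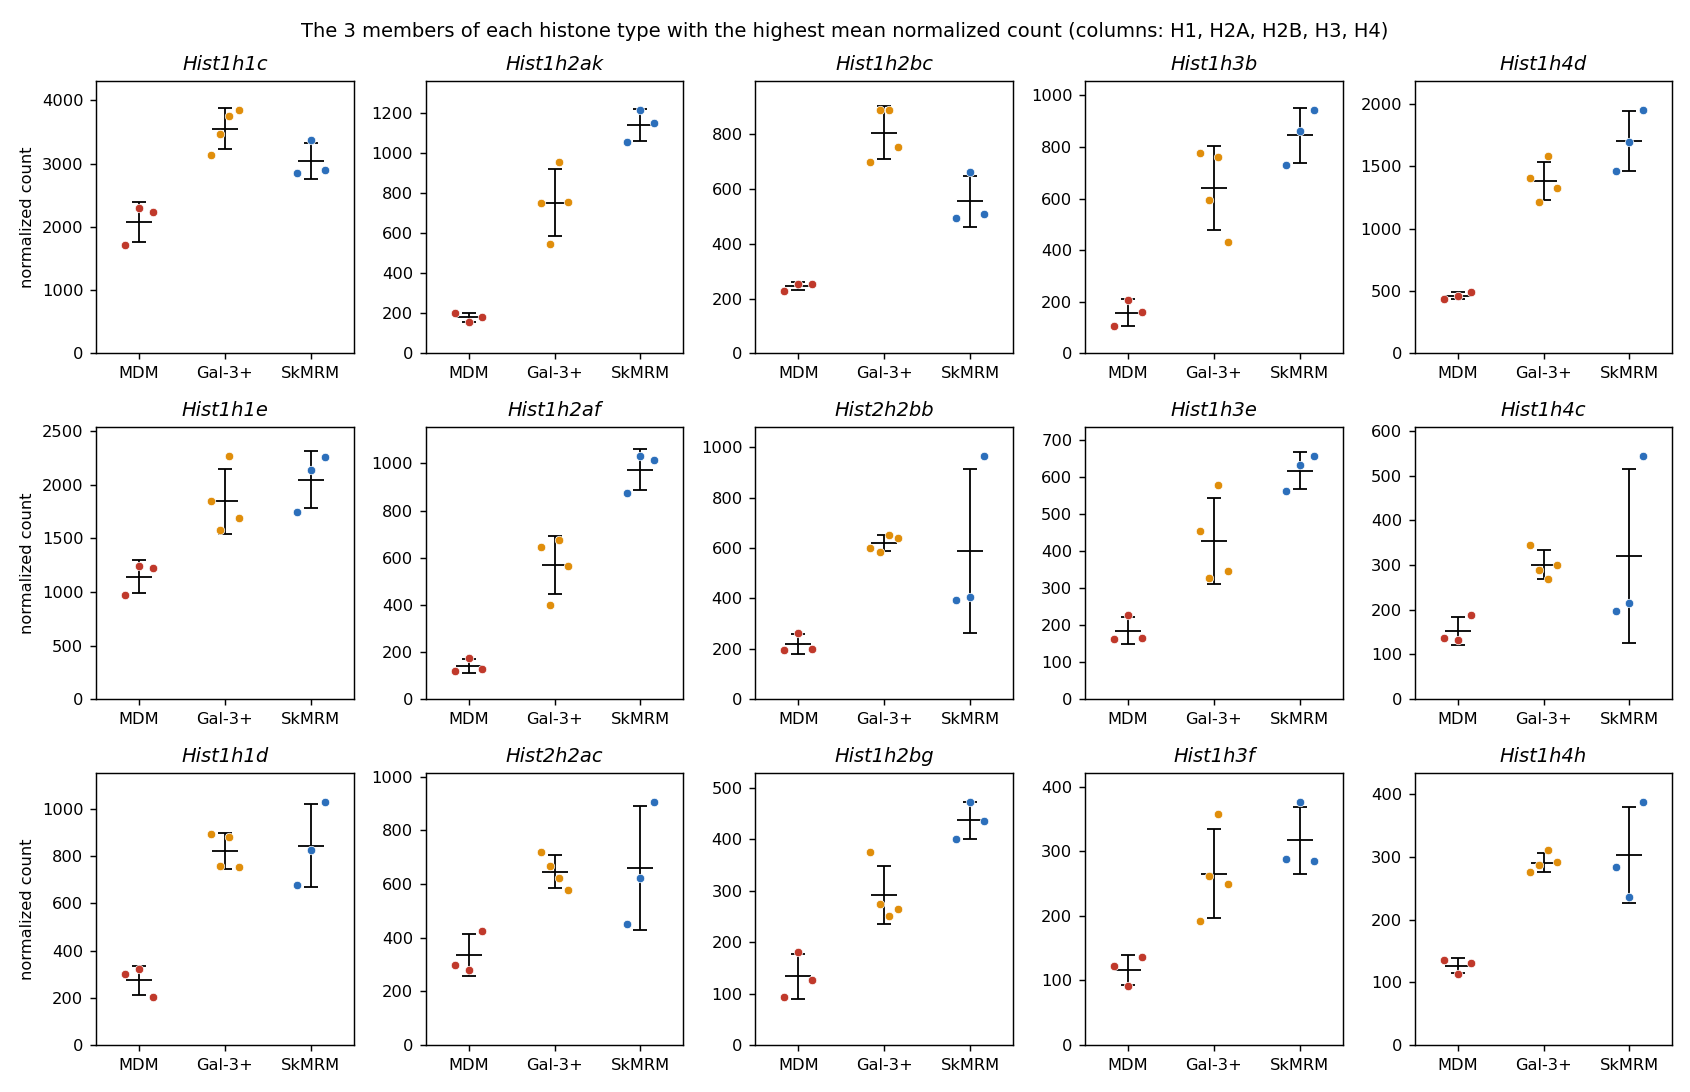
Normalized counts in each library of the 3 members of each histone type with the highest mean count, with MDM, gal-3+ and SkMRM libraries from left to right in each panel (points, libraries; horizontal mark and bar, mean and SD; linear axes from 0). The 3 MDM libraries are the lowest in every panel, at 436 to 490 for *Hist1h4d* against 1212 to 1948 in the other libraries.

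The genes outside the large cluster on chromosome 13 departed from this pattern in places. *Hist4h4*, alone on chromosome 6, had 77.5, 70.2 and 114 normalized counts in MDMs, against 46.6, 93.4, 124 and 57.5 in gal-3+ macrophages and 126, 144 and 388 in SkMRMs. Its MDM and gal-3+ libraries overlapped, and by limma it was called in none of the 3 comparisons (adjusted p = 0.035 in MDMs over SkMRMs and 0.013 in gal-3+ macrophages over SkMRMs). *Hist2h4*, on chromosome 3, had 26.9, 72.7 and 39.9 normalized counts in MDMs, against 60.6, 88.0, 41.0 and 132 in gal-3+ macrophages and 150.5, 173 and 230 in SkMRMs, and fell in MDMs over SkMRMs (log2 fold change of -2.06, adjusted p = 9.2e-04). *Hist4h4* and *Hist2h4* were chosen after their values were seen. On chromosome 13, 37 of 49 members fell in MDMs over SkMRMs and 32 of 49 over gal-3+ macrophages. On chromosome 3, 4 of 8 fell over SkMRMs and 2 of 8 over gal-3+ macrophages. Neither of the 2 genes on chromosome 11 was called, and both had low counts, with means of 19.0 and 7.8 over the 10 libraries. Their log2 fold changes in MDMs over SkMRMs were -2.58 and -0.55. *Hist1h4i*, on chromosome 13, had the smallest log2 fold change of the members in MDMs over SkMRMs (-0.22), with 58.5, 44.7 and 28.2 normalized counts in MDMs, against 62.2, 40.01, 36.9 and 61.4 in gal-3+ macrophages and 39.7, 46.6 and 63.9 in SkMRMs.

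Members that fell were found in every class of annotated transcript end and with or without a promoter octamer. In MDMs over SkMRMs, 14 of the 20 members whose transcript ends near the stem-loop fell (median log2 fold change of -1.83), as did 13 of the 21 whose transcript runs on past it (-1.63) and 14 of the 19 with no stem-loop found (-1.75). In MDMs over gal-3+ macrophages the medians were -1.67, -1.15 and -1.50 in the same order. The class with no stem-loop found includes transcripts annotated only to about the end of the coding sequence. It therefore does not mark genes that lack a stem-loop. Of the 11 members with an octamer, 10 fell over SkMRMs (median -1.74), and of the 42 whose promoter held none, 27 fell (-1.80). These counts are descriptions, since divergent neighbours share promoters.

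Many members are near-identical copies, and how reads that fit several copies were counted is not given in the sources used here. In 23 members under 50% of 100-base windows were unique, and in 6 all were. A window counted as not unique when any other annotated gene held it on either strand, genes overlapping the member included. The 23 are therefore not all near-identical copies, since *Hist2h2bb* shared windows only with genes that overlap it. Of the 37 members with 50% or more of their windows unique, 24 fell in MDMs over SkMRMs and 20 over gal-3+ macrophages, and of the other 23, 17 and 14 fell. How reads were divided among near-identical members is therefore uncertain. Counts of the 4 members that overlap another gene on the same strand, *Hist1h1e*, *Hist1h2ac*, *Hist1h2be* and *Hist2h2bb*, and of the 18 that overlap one on the opposite strand are uncertain in the same way, since no strand setting is given.

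Genes of DNA replication and mitosis were lower in MDMs as well, whereas 1 of 16 listed genes of histone mRNA transcription, processing and turnover was called. Of all genes, 18.0% were called lower and 8.81% higher in MDMs over SkMRMs, and 8.19% and 3.32% over gal-3+ macrophages. Of 33 listed genes of DNA replication and S phase, 18 fell and 1 (*E2f2*) rose in MDMs over SkMRMs (median log2 fold change of -1.30), and 15 fell and none rose over gal-3+ macrophages (-0.97). In gal-3+ macrophages over SkMRMs 2 fell and 1 rose (-0.30). Of 20 listed genes of G2 and mitosis, 17 fell in MDMs over SkMRMs (-2.49), 16 over gal-3+ macrophages (-1.87) and 1 in gal-3+ macrophages over SkMRMs (-0.65), and none rose. *Ccna2*, the cyclin of S phase and G2, had 130, 106 and 156 normalized counts in MDMs, against 640, 675, 862 and 554 in gal-3+ macrophages and 668, 998 and 865 in SkMRMs. *Mcm10*, which helps start replication, had 90.1, 26.8 and 92.8 in MDMs, against 267, 216, 314 and 244 in gal-3+ macrophages and 805, 705 and 1096 in SkMRMs. For *Mcm10* the gal-3+ libraries lay between the other populations, called lower than SkMRMs (log2 fold change of -1.72, adjusted p = 4.3e-04), a pattern that *Ccna2* did not share (-0.30, adjusted p = 0.19). *Nusap1*, a spindle protein gene, had 41.1, 70.2 and 51.7 in MDMs, against 428, 367, 391 and 302 in gal-3+ macrophages and 534, 710 and 804 in SkMRMs. *Uhrf1* and *Prim1*, which act in DNA methylation upkeep and as the primase subunit, fell in MDMs over SkMRMs by 2.48 and 2.47 on the log2 scale, and the mitotic genes *Cenpf*, *Ccnb2* and *Cenpe* by 3.24, 3.06 and 2.91.

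Of 16 listed genes of histone mRNA transcription, 3′ processing and turnover, 1 (*Zfp473*) was called lower in MDMs over SkMRMs and none in the other comparisons. The medians were 0.15, -0.05 and 0.08 in MDMs over SkMRMs, gal-3+ macrophages over SkMRMs and MDMs over gal-3+ macrophages. *Zfp473* had low counts, with 6.3, 3.8 and 0 in MDMs, 2.3, 17.3, 6.2 and 6.8 in gal-3+ macrophages and 26.8, 106 and 26.3 in SkMRMs. *Slbp*, which encodes the stem-loop binding protein, had 1467, 1513 and 1457 normalized counts in MDMs, against 1170, 1248, 1181 and 1252 in gal-3+ macrophages and 1276, 1198 and 1766 in SkMRMs, with overlap between MDMs and SkMRMs. *Npat*, the activator of histone gene transcription, had 386, 355 and 277 in MDMs, against 373, 360.1, 471 and 359 in gal-3+ macrophages and 378, 471 and 463 in SkMRMs, and was called in no comparison. Of 20 listed chaperones and assembly factors, *Chaf1a* and *Asf1b*, both of which act in depositing new histones behind the replication fork, fell in MDMs in both comparisons (for *Asf1b*, log2 fold changes of -2.13 over SkMRMs and -1.57 over gal-3+ macrophages), and no other was called. *Chaf1a* had 231, 158 and 215 normalized counts in MDMs, against 666, 584, 696 and 605 in gal-3+ macrophages and 670, 748 and 759 in SkMRMs.

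Histone variants encoded outside the clusters, most of which are made from polyadenylated mRNA and also outside S phase, moved in both directions. *H2afx* on this list is an exception, since it also gives a stem-loop mRNA in S phase. It had 372, 492 and 519 normalized counts in MDMs, against 760, 659, 893 and 722 in gal-3+ macrophages and 861, 991 and 868 in SkMRMs. Its log2 fold changes in MDMs were -0.99 over SkMRMs and -0.72 over gal-3+ macrophages (adjusted p = 2.6e-05 and 5.9e-04 by limma), short of 2-fold. Of 10 measured, *H2afj*, *H2afy* and *H3f3a* rose and *H2afv* and *H2afy2* fell in MDMs over SkMRMs, and *H2afv* alone was called over gal-3+ macrophages, where it fell. The log2 fold changes of *H2afj* and *H2afv* in MDMs over SkMRMs were 1.16 and -1.33. *H3f3a*, which encodes H3.3, had 21075, 24720 and 23807 normalized counts in MDMs, against 15471, 15759, 16370 and 15594 in gal-3+ macrophages and 10695, 10753 and 10709 in SkMRMs, so that its order was the reverse of that of the clustered H3 genes. *H2afy* (macroH2A1) had 5893, 7341 and 6494 in MDMs, against 4750, 4070, 4739 and 4540 in gal-3+ macrophages and 2496, 2442 and 2730 in SkMRMs. The 10 variants together summed to 62469 to 74205 in MDMs, 48118 to 51337 in gal-3+ macrophages and 36487 to 40466 in SkMRMs. Of 9 measured abundant RNAs other than histone mRNA that have no poly(A) tail, 3 rose and 1 fell in MDMs over SkMRMs, and none was called over gal-3+ macrophages. *Rmrp*, the RNA of RNase MRP, rose in MDMs over SkMRMs (log2 fold change of 2.18), and *Vaultrc5*, a vault RNA, fell (-1.67). *Rpph1*, the RNA of RNase P, had 60662, 58030 and 52286 normalized counts in MDMs, against 12103, 18597 and 63513 in SkMRMs. It passed the test (1.23, adjusted p = 0.0099), although the SkMRM library WT3 lay above every MDM library. The sums of these RNAs ran from 105671 to 115979 in MDMs, 60801 to 108823 in gal-3+ macrophages and 35474 to 130999 in SkMRMs, so that their order was not that of the histone genes.

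**Figure D5:**
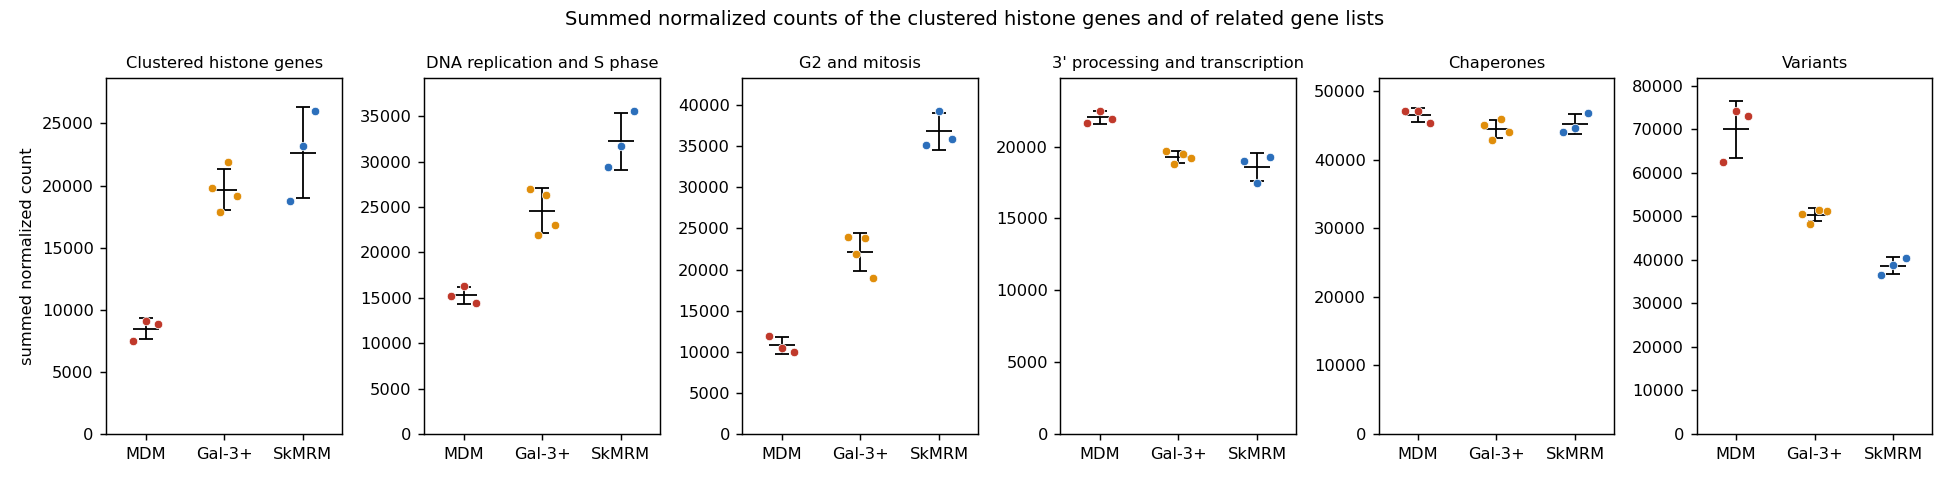
Summed normalized counts in each library of the clustered histone genes and of 5 related lists, with MDM, gal-3+ and SkMRM libraries from left to right in each panel (points, libraries; horizontal mark and bar, mean and SD; linear axes from 0). The clustered histone genes, the replication list and the mitosis list are lowest in MDMs, while the variants are highest there, at 62469 to 74205 against 36487 to 51337 in the other libraries.

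Of the genes behind the sort, *Folr2* and *Cd52* mRNA separated the 3 populations, while *Lgals3* mRNA, which encodes galectin-3, separated MDMs and gal-3+ macrophages from SkMRMs but not from each other, with libraries from 40211 to 51278 in MDMs and from 40684 to 45826 in gal-3+ macrophages. *Lgals3* averaged 46239 normalized counts in MDMs, 43698 in gal-3+ macrophages and 4172 in SkMRMs, *Folr2* averaged 124, 2508 and 14531, and *Cd52* averaged 3954, 1883 and 117 in that order. All 7 listed macrophage markers were measured, and their sums were 305378 to 365426 in MDMs, 307923 to 393872 in gal-3+ macrophages and 199553 to 213061 in SkMRMs. The 6 fibroblast markers summed to 73684 to 82473 in MDMs, 57484 to 86469 in gal-3+ macrophages and 561281 to 1362720 in SkMRMs. Most of the SkMRM sum came from *Col1a1* and *Col1a2* (means of 549888 and 303570), while *Col3a1*, *Pdgfra* and *Lum* were not called in MDMs over SkMRMs. The 6 muscle fiber markers summed to 1130 to 1554, 4373 to 6239 and 8250 to 13328 in MDMs, gal-3+ macrophages and SkMRMs. The 3 satellite cell markers summed to 266 to 281 in MDMs, 529 to 677 in gal-3+ macrophages and 499.5 to 773 in SkMRMs, and the 4 endothelial markers to 5807 to 6821, 9861 to 13517 and 3927 to 11364. Neutrophil markers (2 of 4 listed in the table) summed to 269 to 335 in MDMs, 40.4 to 156 in gal-3+ macrophages and 28.9 to 104 in SkMRMs, and T and B cell markers (2 of 4) and erythroid markers (3 of 4) reached at most 87.5 and 871 in any library. None of the measured markers was at 0 in a whole population. In MDMs, all 6 muscle fiber markers were called lower over SkMRMs and over gal-3+ macrophages. Of the 3 satellite cell markers 1 was called lower in each comparison, of the 4 endothelial markers 1 over SkMRMs and 3 over gal-3+ macrophages, and of the 6 fibroblast markers 3 over SkMRMs and 0 over gal-3+ macrophages. Their part in the lower histone counts of MDMs was not tested.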

How the data were processed

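The members and the related lists were chosen with earlier results of these data known. Total RNA (2 ng) of sorted macrophages was made into stranded libraries after ribosomal cDNA was removed, and read in paired ends of 100 bases. The authors mapped reads to mm10 with TopHat 2.0.14 and GENCODE, assigned them to genes with HTSeq 1.99.2, and DESeq2 1.28.1 size factors then scaled the counts, and the deposited signal is this normalized count per gene and library. The deposited columns of the authors' own comparisons (mean signal, log2 fold changes with standard errors, Wald scores, p-values as deposited by the authors) were not used. Columns name the population and a number but not a sample, so they were matched to populations. Dividing by each library's step gave whole reads for 100% of values (tolerance 0.001), at depths of 22395027 to 75907638 reads, and the SD between libraries holds the error of counting at those depths.

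All 10 libraries entered 1 limma 3.58.1 fit (R 4.3.3, trended variance) of log2(normalized count + 1), with Benjamini-Hochberg adjustment across the 17001 genes, and the fit was tested on simulated data. Fold changes on this scale understate changes of low genes. P-values measure the spread between these libraries. Values in every library were given for the 3 members of each type with the highest mean and the 4 called members with the largest change in each comparison and direction (mean of at least 50), and values or fold changes for up to 4 called genes of each list (same minimum). *Hist1h4i*, *Hist1h1a*, *Hist1h1b*, *Hist1h1t*, *Hist2h3c2*, *Hist2h4*, *Hist4h4*, *E2f2*, *H2afx*, *H2afy2*, *Zfp473*, *Slbp* and *Npat* were named outside that rule, as were the fibroblast markers *Col1a1*, *Col1a2*, *Col3a1*, *Pdgfra* and *Lum*. Sums by type had no test. Positions, transcripts and stem-loops came from GENCODE M21 and promoters from RefSeq (GRCm38.p6). The alternatives were other pseudocounts (0.5 and 5), a minimum of 50 in 3 libraries, TMM and upper-quartile scaling, edgeR 4.0.16 and DESeq2 1.42.0 on the recovered reads, 2 populations alone, a replicate block and each library left out.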

Additional observations from a re-analysis of the deposited data

How the results depend on the processing

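Histone genes called lower in MDMs numbered 39 to 43 over SkMRMs and 27 to 38 over gal-3+ macrophages under the other pseudocounts, minimum, scalings, tests and 2-population fits, and 35 to 43 and 28 to 34 with 1 library left out. In gal-3+ macrophages over SkMRMs the 0 histone genes called became 2 with DESeq2, 1 with edgeR and 1 with upper-quartile scaling, and 0 to 1 with 1 library left out. The 1 was *Hist4h4* without gal-3+ library mdx4 or SkMRM library WT1, and *Hist2h4* without gal-3+ library mdx5. With the column number as a replicate block, 25 histone genes were called in MDMs over SkMRMs, against 41 without it, 29 over gal-3+ macrophages, against 34, and 1956 of all genes in gal-3+ macrophages over SkMRMs, against 2935. The labels do not say that a column number marks 1 mouse, so that these numbers were not taken to pair the libraries. Deviations of MDM and gal-3+ libraries with the same number correlated at -0.03, 0.01 and 0.03 for numbers 1, 4 and 5. Such correlations cannot settle whether 2 libraries came from 1 mouse. Upper-quartile scaling moved the median of all genes to -0.32 in MDMs over SkMRMs and to -0.23 in gal-3+ macrophages over SkMRMs, and the members' medians to -1.90 and -0.46. No called fold change of a member named in the text reversed. Uncalled ones changed sign in gal-3+ macrophages over SkMRMs for *Hist1h1d* (-0.024, against 0.039 with TMM, 0.018 with edgeR, 0.035 with the replicate block and -0.17 to 0.13 with 1 library left out), *Hist2h2ac* (0.027, against -0.033 with DESeq2, -0.091 with upper-quartile scaling and -0.22 to 0.29), *Hist2h2bb* (0.21, against -0.017 with the block and -0.018 to 0.63), *Hist1h4c* (0.069, against -0.094 with DESeq2, -0.038 with edgeR, -0.069 with the block, -0.049 with upper-quartile scaling and -0.19 to 0.53), *Hist1h4h* (-0.030, against 0.033 with TMM and -0.19 to 0.16) and *Hist1h4i* (-0.0087, against 0.053 with TMM, 0.061 with edgeR, 0.11 with the block and -0.16 to 0.18). With 1 library left out, *Hist1h4i* also ran from -0.46 to 0.058 in MDMs over SkMRMs and from -0.45 to 0.066 over gal-3+ macrophages, and *Hist4h4* from -0.036 to 0.43 in MDMs over gal-3+ macrophages. *Hist4h4* was called in MDMs over SkMRMs with DESeq2 (-1.34), and the call of *Hist2h4* there was lost with the block (-2.15). Counting error limits members under 50 normalized counts most. No result was flagged among 25 groups of 4 libraries tested for a library standing apart. Only gal-3+ macrophages had 4 libraries, so that no MDM or SkMRM library, WT3 among them, was tested in this way. Of all genes, edgeR on the recovered reads called 4271 in MDMs over SkMRMs, 2791 in gal-3+ macrophages over SkMRMs and 1846 in MDMs over gal-3+ macrophages.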
